A study of Homo sapiens with 2 samples.

Results

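The probes for hsa-miR-638, hsa-miR-663, hsa-miR-149, hsa-miR-149* (the opposite arm of the miR-149 hairpin) and hsa-miR-765 were followed in HepG2, a human hepatocellular carcinoma cell line. They were taken by their exact names from the deposited table and make up 5 of its 718 probe names. They had been picked with their values on these arrays known, so their differences are given as a description. The series asked how TCDD, a dioxin that binds and activates the aryl hydrocarbon receptor, influences such cells. It held 1 array labelled control and 1 labelled TCDD, 10 nM for 48 h. The protocol text attached to both arrays speaks of TCDD, and the groups rest on the treatment label of each sample. The agent or vehicle given to the control cells is not given in the sources used here, and separate cultures are not stated. With 1 array per group there was no replicate spread, no test and no p-value.

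miRNAs are short RNAs cut from hairpin precursors, and they pair with target mRNAs mainly through bases 2 to 8, the seed. The aryl hydrocarbon receptor is a ligand-activated transcription factor that works with ARNT at sites built around the letters GCGTG. Very GC-rich or G-rich small RNAs are a known concern on hybridization arrays, because their probes can hold other labelled RNA and stay bright. As background from other cells, miR-638 has been described as targeting the cell-cycle kinase CDK2, miR-663 the transcription factor JUNB, and miR-149 the kinase AKT1. The arm miR-149* has been described as responsive to p53.

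The 5 mature sequences are shown because their base content is what sets them apart on paper, and it does so unevenly. They are from RefSeq (GRCh38.p14), 5′ to 3′, with the seed in capitals.
hsa-miR-638: aGGGAUCGcgggcggguggcggccu
hsa-miR-663: aGGCGGGGcgccgcgggaccgc
hsa-miR-149*: aGGGAGGGacgggggcugugc
hsa-miR-149: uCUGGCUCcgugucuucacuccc
hsa-miR-765: uGGAGGAGaaggaaggugaug
The name GC-rich was borne out for 3 of the 5, taking 65% GC as the threshold. miR-663 had the highest GC share, 90.9% of 22 bases. miR-638 had 80% of 25 bases, and miR-149* had 76.2% of 21 bases with a run of 5 G. miR-149 had 60.9% of 23 bases and was rich in C, with 10 C against 4 G. miR-765 had only 52.4% GC, with 11 G and no C among its 21 bases, and 85.7% of its bases were purines. No pair of the 5 shared a seed, and none of the other 214 array names matched to a mature sequence shared a seed with any of them. Array names without a matched sequence were not compared. Among all RefSeq mature sequences used, 3 others have the seed of miR-663, 2 that of miR-149* and 1 that of miR-765.

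The sequences also overlapped little with each other. The longest run of bases in common was 6 (cgcggg), between miR-638 and miR-663. Against the other matched names, the longest run was 8 bases for miR-149 (with miR-892b), for miR-149* (with miR-623) and for miR-765 (with miR-583, miR-587 and miR-601). It was 7 bases for miR-638 (with miR-193a-5p, miR-331-5p and miR-557) and for miR-663 (with miR-492). The partners miR-892b, miR-623, miR-583, miR-587, miR-601 and miR-492 were undetected on both arrays. The sequences of the array's probes were not used here.

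The hairpins lie at 4 places in the genome. miR-638 is at chr19:10718419-10718443 on the plus strand, inside the span of DNM2, which encodes the membrane-severing GTPase dynamin 2, and it begins 340 bases after the start of that gene. Both miR-149 arms are on the plus strand of chromosome 2, at chr2:240456015-240456037 and chr2:240456056-240456076, within GPC1, which encodes the cell-surface proteoglycan glypican 1, and within the antisense gene GPC1-AS1. miR-765 is at chr1:156936156-156936176 on the minus strand, within ARHGEF11, a gene of the same strand, and within LRRC71 on the other strand. miR-663 matched miR-663a at chr20:26208243-26208264 on the minus strand, within the long noncoding RNA gene MIR663AHG. Exon and intron were not assigned. The MIR149 hairpin (chr2:240456001-240456089, plus strand, 71.9% GC) shows how its arms differ, with the C-rich miR-149 first and the G-rich miR-149* second, both in capitals.
MIR149: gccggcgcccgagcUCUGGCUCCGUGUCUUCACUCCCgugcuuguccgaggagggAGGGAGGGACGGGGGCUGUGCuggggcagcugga
The MIR638 hairpin (chr19:10718404-10718503, plus strand) was GC-rich throughout, with 81.0% GC over 100 bases, and its mature part is in capitals.
MIR638: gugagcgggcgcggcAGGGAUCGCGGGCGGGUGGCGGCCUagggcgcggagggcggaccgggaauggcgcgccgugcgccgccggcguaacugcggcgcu

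The receptor's core letters GCGTG, read on both strands with overlaps counted, were looked for in RefSeq windows from 250 bases before to 50 bases after a start of the genes that span these hairpins. The window of ARHGEF11 lies inside the span of that gene, so it is not at its outermost start. They were found once each in the windows of DNM2, ARHGEF11 and LRRC71, 3 times in that of MIR663AHG, and not in those of GPC1 and GPC1-AS1. The same letters occurred in 36.5% of all 35116 windows, so a match is a description of the letters and no more.

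Small RNAs were labelled by ligation of a dye-bearing linker to total RNA, and each deposited value is a log2 fluorescence of 1 channel. The series' design text says that unrelated material filled the remaining channel of these arrays. A probe was called detected on an array if its fluorescence was above a floor of 100 units (6.64 on the log2 scale), which is 2 times the smallest value of 50 shared by 343 names on the control array and 257 on the TCDD array. In all, 242 of the 718 names were detected on either array and 222 on both. The liver markers miR-192 and miR-194 were bright and the probe for miR-122a, which dominates the miRNAs of normal hepatocytes, was dim (7.60 on the control array and 7.59 on the TCDD array). All 8 listed blood, muscle and neural markers were undetected.

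All 5 probes were detected on both arrays, 3 of them far above the floor and 2 close to it. miR-638 was at 12.97 on the control array and 14.07 on the TCDD array, which is 8037 and 17221 fluorescence units. The array labelled TCDD was higher by 1.10 on the log2 scale, or 2.14-fold. miR-638 held rank 30 of 718 by brightness on the control array and rank 16 on the TCDD array, and ranks are not altered by a smooth rescaling of an array. The highest signal of each array was still 7.76 times and 3.87 times brighter than miR-638, so the probe was not at the top of the range.

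miR-663 and miR-149* were also higher on the TCDD array, but by less than 2-fold. miR-663 was at 12.37 on the control array and 12.78 on the TCDD array, a difference of 0.41, or 1.33-fold. miR-149* was at 10.82 and 11.31, a difference of 0.49, or 1.41-fold. Their ranks by brightness moved little, from 44 to 36 for miR-663 and from 66 to 61 for miR-149*.

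miR-149 and miR-765 were dim and slightly lower on the TCDD array. miR-149 was at 7.50 on the control array and 7.31 on the TCDD array, a difference of -0.19. miR-765 was at 7.56 and 7.27, a difference of -0.28. These signals were 1.81 and 1.88 times the floor on the control array and 1.59 and 1.55 times the floor on the TCDD array, where few fluorescence units make up the whole difference (181 against 159 units for miR-149, 188 against 155 for miR-765).

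**Figure D1:**
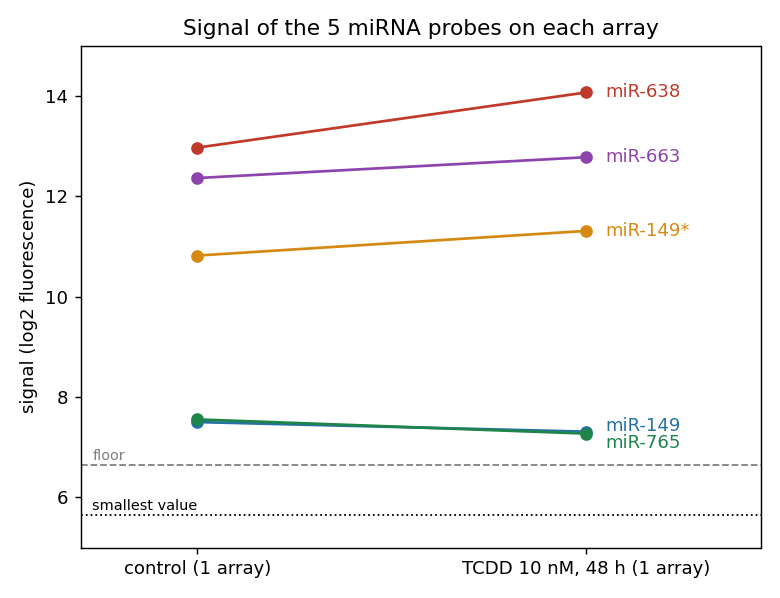
Signal of the 5 probes in log2 fluorescence (vertical axis) on the control array and the TCDD array (horizontal axis), 1 point per array joined by a line per probe; the dashed line is the floor at 6.64 and the dotted line the smallest deposited value at 5.64. miR-638, miR-663 and miR-149* lie far above the floor and are higher on the TCDD array, while miR-149 and miR-765 lie just above the floor and are slightly lower there.

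The spread between probes gives the only scale for these differences. The robust SD of the log2 difference (scaled median absolute deviation) over the 222 probes detected on both arrays was 0.28, and it measures spread between RNAs, not between replicates. miR-638 lay 3.98 such SDs above 0 and miR-149* 1.78 above, while the differences of miR-149 and miR-765 were -0.69 and -1.02 in the same unit. Among the 242 detected probes the difference of miR-638 ranked first from the top. The next were miR-92a-1* (0.76) and miR-194 (0.72). The reference RNAs RNU6B (0.65) and 5S rRNA (0.57) ranked 7th and 9th. miR-149* ranked 11th, next to miR-339-5p (0.49 for each), and miR-663 ranked 22nd. The reference RNA RNU48 was at 0.44, above miR-663. Its value on the TCDD array, 16.02, was the highest there and was shared with miR-103. Whether a ceiling of the signal limited that difference was not tested. RNU44 (0.07), RNU24 (0.03), RNU66 (-0.08) and RNU38B (-0.15) lay nearer to 0. Whether a difference between the arrays in RNA or labelling has a part in these values was not tested. miR-149 and miR-765 ranked 184th and 202nd. Of the 5 probes, 1 was at least 2-fold higher on the TCDD array, where 0.413% of all detected probes were. That share is 1 of 242 and is miR-638 itself. None of the 5 was at least 2-fold lower, against 2.48% of all detected probes, and the shares together came to 2.89%. Differences above 0 were found for 3 of the 5 and for 49.6% of all detected probes, and the median difference was 0.41 over the 5 and -0.003 over all 242. Since the 5 were chosen with this contrast known, nothing is read from these counts.

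Signal level moved only weakly with the differences (Pearson r = 0.12, Spearman rank correlation = 0.17, over the 222 probes detected on both arrays). In the 4 bins of mean level over probes detected on both arrays, the median difference was -0.05 in the dimmest bin, which held miR-149 and miR-765, and -0.13 in the next. It was 0.02 in the third bin, which held miR-149*, and 0.08 in the brightest, which held miR-638 and miR-663. The sign of each of the 5 differences was the sign of the median of its own bin, but each bin held differences of both signs. From the dimmest bin to the brightest, 20 of 56, 20 of 55, 28 of 55 and 37 of 56 differences were above 0. The 5 were picked with their signs known, so nothing is read from this match. Against its 40 neighbours in mean level, miR-638 was above all 40 (their median was 0.09 and their highest difference 0.72). miR-149* was above 39 of its 40 neighbours and miR-663 above 35, while miR-149 was below 33 and miR-765 below 36 of theirs.

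The arms of the miR-149 hairpin differed in opposite directions. The gap between the difference of miR-149* and that of miR-149 was 0.68. Among 42 pairs of arms detected on both arrays, whose names differ only by the star or by 5p and 3p, this was the 4th largest gap in size, after those of miR-191 (1.08), miR-339 (-0.83) and miR-200a (-0.69, as the difference of the second arm minus that of the first). Starred arms that carry a hairpin number, such as miR-92a-1*, were left out of the 42, and 3 of 5 such pairs also had larger gaps, those of miR-181a with miR-181a-2* (1.18), miR-92a with miR-92a-1* (1.07) and miR-138 with miR-138-1* (-0.70). The median size of the gap over the 42 was 0.23, and 19 of them had arms of opposite sign. The brighter signal was that of the starred or 3p arm in 10 of the 42, miR-149 among them. Brightness depends on the probe as well as on the RNA, so the arms' levels do not say which arm was more abundant.

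The miRNAs whose pair of values lay nearest to each of the 5, by Euclidean distance over the 2 arrays, were as follows. For miR-638 they were miR-106a (13.37 on the control array and 13.79 on the TCDD array, distance 0.48) and miR-106b (13.19 and 13.53, distance 0.58). For miR-663 they were miR-744 (12.46 and 12.78, distance 0.09) and miR-423-3p (12.40 and 12.67, distance 0.12), the second with 65.2% GC. The values nearest to those of miR-149* belonged to miR-146b-5p (11.01 and 11.09, distance 0.29) and miR-19b (10.98 and 11.58, distance 0.31). miR-149 lay nearest to miR-200b* (distance 0.06) and miR-765 (distance 0.07), and miR-765 lay nearest to miR-920 (distance 0.04) and miR-149. The wider distances around miR-638 show that no other human miRNA had a pair of values close to it.

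**Figure D2:**
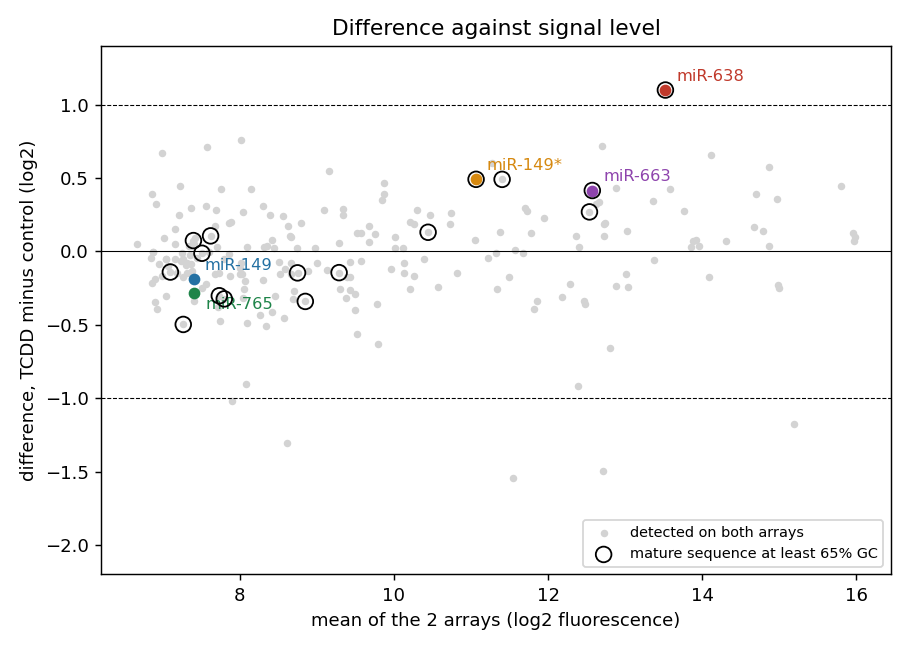
Log2 difference, TCDD minus control (vertical axis), against the mean log2 fluorescence of the 2 arrays (horizontal axis) for the 222 probes detected on both arrays (grey points), with the 5 probes in colour, open circles around those with a mature sequence of at least 65% GC, and dashed lines at 2-fold. miR-638 is the single point above the upper dashed line, and the circled probes are mostly below 0 at the dim end and above 0 at the bright end.

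To set the 5 beside other GC-rich miRNAs, 215 human names were matched to a RefSeq mature sequence, 212 by the same name and 3 of the 5 by their newer names. Of the 28 matched names with at least 65% GC, 18 (64.3%) were detected, against 45 of 187 names (24.1%) with less. The share detected was 5.13% under 40% GC, 19.7% from 40% to under 50%, 30.9% from 50% to under 60% and 52.6% from 60% to under 65%. Without miR-638, miR-663 and miR-149* the GC-rich share was 15 of 25 names, or 60%. A wider match that also took names with a listed 5p or 3p arm, with the mean GC share of the arms, gave 22 of 35 (62.9%) against 32.1% of 549 names. Its shares over the same 4 steps of lower GC were 12.4%, 32.9%, 38.7% and 58.8%. The first match leaves out many names, bright ones such as miR-21 and miR-222 among them, and its contrast is the larger.

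Names of high GC share were bright more often as a class, but single names differed. Of the 12 matched names with at least 70% GC, 10 were detected and 4 (33.3%) had a mean level above 10. Those 4 were miR-638, miR-663, miR-149* and miR-324-3p. Under 65% GC, 24.1% were detected and 5.35% were above that level. miR-572 had the same GC share as miR-638, 80%, and was undetected, at 5.64 on the control array and 5.80 on the TCDD array. miR-940, with 81.0% GC, was near the floor at 7.17 and 7.03. G makes up a smaller share of them, 40% of miR-572 and 28.6% of miR-940, than of miR-638 (56.0%), miR-663 (54.5%) and miR-149* (61.9%). It also makes up 52.4% of miR-765, however, which was dim (7.56 and 7.27). miR-615-5p (6.60 and 6.74) and miR-637 (7.57 and 7.68), each with a run of 5 G, were dim too. The sequences of miR-572 and miR-940 are shown for comparison with those above.
hsa-miR-572: gUCCGCUCggcgguggccca
hsa-miR-940: aAGGCAGGgcccccgcucccc
The other GC-richest detected names were miR-602 (78.3% GC, 6.65 and 6.47), miR-615-5p (77.3%, 6.60 and 6.74), miR-324-3p (73.9%, 10.38 and 10.51), and, tied at 70%, miR-326 (7.36 and 7.44), miR-665 (7.89 and 7.59) and miR-760 (7.52 and 7.51). Of these, miR-324-3p alone was bright. The GC-richest undetected names after miR-572 were miR-611 (73.9%), miR-564 (68.4%), miR-296-3p (68.2%) and, tied at 66.7%, miR-631, miR-650, miR-662 and miR-671-3p.

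**Figure D3:**
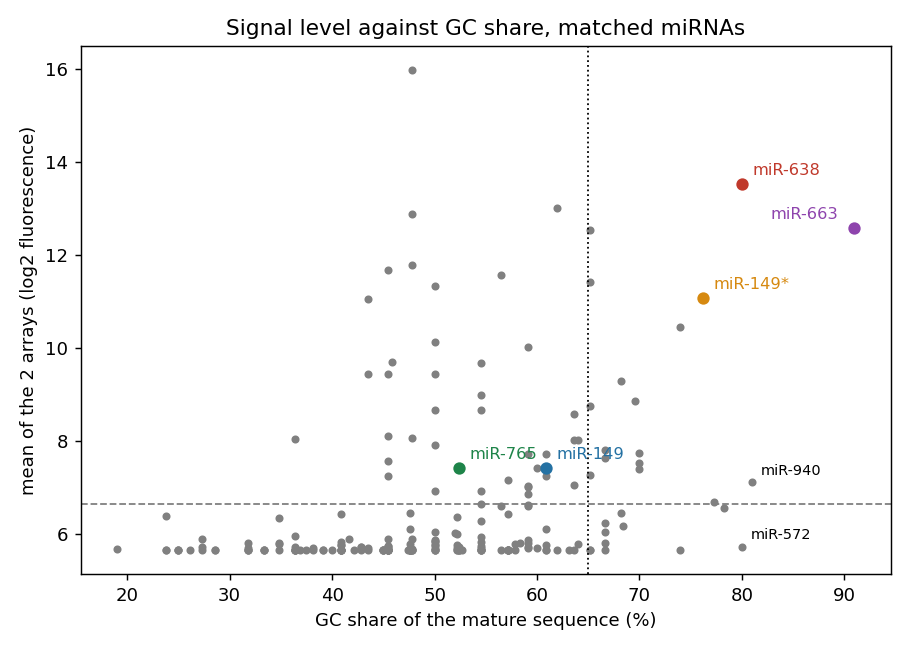
Mean log2 fluorescence of the 2 arrays (vertical axis) against the GC share of the mature sequence in percent (horizontal axis) for 215 matched human miRNA names, with the 5 probes in colour, the floor as a dashed line and 65% GC as a dotted line. miR-638, miR-663 and miR-149* stand at the upper right, while miR-572 and miR-940, of like GC share, lie below the floor and just above it, and miR-149 and miR-765 fall left of the dotted line.

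Runs of G gave a similar picture. Of 16 matched names with at least 4 G in a row, 10 (62.5%) were detected, among them miR-149* and miR-663. The share was 41.5% of 53 names with a longest run of 3 G, miR-638 among them, and 21.2% of 146 names with none. Names with at least 4 C in a row and no such run of G were detected at a like share, 10 of 14 (71.4%). A mean level above 10 was found for 21.4% of names with at least 65% GC and for 5.35% of the rest (22.9% and 10.9% in the wider match), and the median level over all names of each set was 7.34 and 5.70. Within the 56 matched names detected on both arrays, which leaves out those under the floor, GC share and mean level had a Pearson r of 0.0008 and a Spearman rank correlation of -0.11.

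The differences of GC-rich miRNAs lay on both sides of 0. Of the 18 detected names with at least 65% GC, 9 had differences above 0 and 9 below, with a median of 0.04, against 0.007 over all 63 detected matched names. They ranged from -0.50 (miR-139-3p, at 7.52 and 7.02) to the 1.10 of miR-638. Without the 3 GC-rich probes described here the median was -0.01. It was 0.09 in the wider match (13 above 0 and 9 below) and -0.11 for at least 60% GC (10 above and 18 below), so its sign depended on the set. Among these GC-rich names, too, bright and dim probes differed. All 6 with a mean level above 10 had differences above 0. They were miR-638, miR-149*, miR-663, miR-339-5p (0.49), miR-423-3p (0.27) and miR-324-3p (0.13), and their median was 0.45. Of the 12 detected but dimmer names, 9 had differences below 0, with a median of -0.14. Among matched names with less GC, 6 of 10 above that level had differences above 0 (median 0.04), and 17 of 35 of the dimmer ones did (median -0.05). The level of 10 was chosen with the values known, and 3 of the 6 bright GC-rich names are among those picked for this description. Over the 16 GC-rich names detected on both arrays, difference and mean level went together (Pearson r = 0.82, Spearman rank correlation = 0.67), against r = 0.12 and a rank correlation of 0.17 over all 222 probes detected on both. Without miR-638 it was r = 0.76 with a rank correlation of 0.60 over 15 names, and without all 3 of the GC-rich probes described here r = 0.66 with a rank correlation of 0.42 over 13. The points of each relation share the same pair of arrays.

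A list of 41 probes that are GC-rich or often bright on arrays, of which 39 names were on the array, gave much the same. It had 21 detected names, 12 with differences above 0 and 9 below, and a median of 0.10. Without the 5 it had 16, 9 above and 7 below, with a median of 0.05. None of these 16 lay 2-fold apart in either direction. Whether binding of other labelled RNA to GC-rich probes, or the trend with signal level, has a part in the values of miR-638, miR-663 and miR-149* was not tested.

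The 2-fold call of miR-638 lay close to the threshold. It held at 1.12 with median centring and at 1.06 with quantile normalization, and it ended at 0.99 with the level trend removed and at 0.95 with the trend on GC share removed. It ended at 0.98, or 1.97-fold, when a curve fitted to the deposited values, taken as the authors' scaling, was inverted (8374 units on the control array and 16517 on the TCDD array). The scaling method itself is not stated, and on the control array the fitted grid lay 0.833 units off whole numbers for a reason that is not known, which is part of these values. miR-638 kept the highest difference in each of these settings, among all detected probes or, with the GC trend removed, among the 63 detected matched names. Without a floor 5 probes had a higher one, all of them under the floor on the control array (miR-181c, miR-30c-1*, miR-369-3p, miR-370 and miR-605). The difference of miR-663 was 0.29 before the scaling and 0.04 with the GC trend removed. With the GC trend drawn without the 5 probes, a setting added after the data were seen, miR-663 was at 0.47, miR-638 at 1.15 and miR-149* at 0.56. That trend ends at miR-940 (81.0% GC) and was held flat beyond it. miR-149* stayed between 0.37 and 0.56, miR-149 between -0.24 and -0.07, and miR-765 between -0.33 and -0.13. The signs of all 5 were kept in the 9 settings run, though leaving the floor out or adding it could not have reversed any of them. Median centring also shifted the differences by too little to do so (miR-149, the smallest, went from -0.19 to -0.17).

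**Figure D4:**
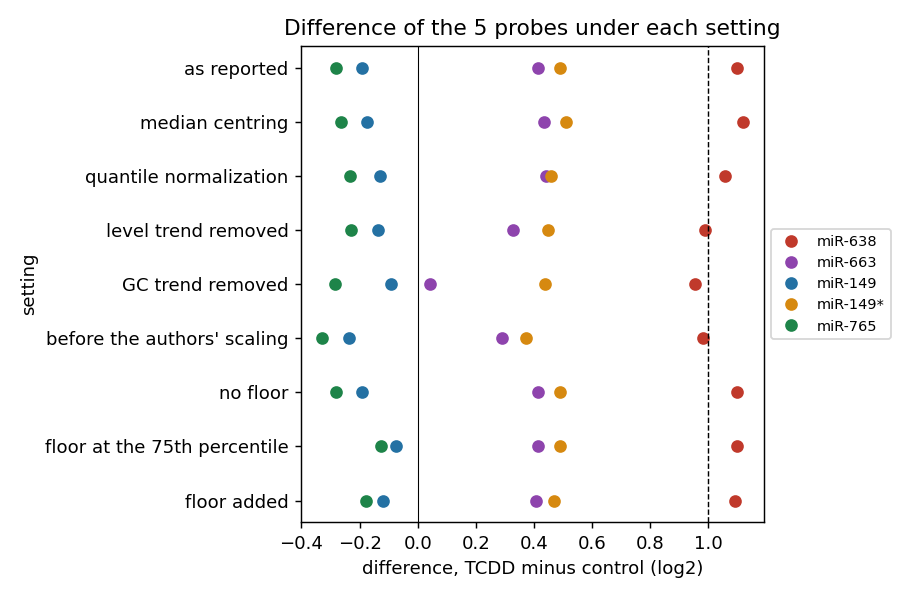
Log2 difference, TCDD minus control (horizontal axis), of each of the 5 probes as reported and under 8 other settings (vertical axis), with solid and dashed lines at 0 and at 2-fold. miR-638 moves between 0.95 and 1.12 across the dashed line, miR-663 falls to 0.04 with the GC trend removed, and no probe crosses 0. That GC trend was drawn with the 5 probes included. The setting with the trend drawn without them is not plotted (miR-663 at 0.47, miR-638 at 1.15).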

How the data were processed

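The deposited table gave log2 fluorescence of 1 channel for each of 2 arrays, 1 labelled control and 1 labelled TCDD (10 nM, 48 h). The labels' protocols give labelling by linker ligation. No source used here gives the scanner, background correction or scaling. The deposited log2 values followed a bent grid of unit steps. A polynomial of degree 2 in log2 signal placed 96.5% of 375 values in control and 100.0% of 461 on the other array within 0.05 units of that grid, and its inverse gave the values before scaling.

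Probe numbers were removed from names, and the 719 probes gave 718 names. Values under a floor of 100 units were raised to it before taking the difference, TCDD minus control. Sequences and gene spans came from RefSeq (GRCh38.p14). For miR-663, miR-149 and miR-149* the entries miR-663a, miR-149-5p and miR-149-3p were used. The names given are the 5 probes, their nearest neighbours, the 5 GC-richest detected and undetected names with ties, and those sharing the longest run of bases; others were chosen after their values were seen. The members and lists were chosen with earlier results of these data known. No test was possible with 1 array per group, and precision is limited by that number. Code was tested on simulated data. Alternatives were median centring, quantile normalization, lowess removal of a level or GC trend (fraction 0.5), inverted scaling, a floor left out, set at the 75th percentile or added, and other fold and GC thresholds. Calculations ran in Python 3.11.15 with statsmodels 0.14.6 (lowess), scipy 1.17.1, pandas 2.3.3 and numpy 2.4.6, and plots in matplotlib 3.10.9.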

Additional observations from a re-analysis of the deposited data

How the results depend on the processing

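Of 91 alternative values, 84 moved by less than the spread used as a yardstick (the robust SD of 0.28 between probes for differences and medians, 1.5 times for counts, the 95% binomial interval for a share). Some of them could not move. All 5 probes lay above the floor, so leaving it out gave the same 5 differences. The count of 0 probes at least 2-fold lower had to stay 0 at 3-fold. A spread between single probes is also a wide yardstick for medians, so the 84 is no measure of robustness. The count of the 5 probes at least 2-fold higher was 1 as reported and 0 with the level trend removed, with the GC trend removed, before the authors' scaling and at a threshold of 3-fold. The difference of miR-663 was 0.041 with the GC trend removed and 0.47 with that trend drawn without the 5 probes, which also left the count at 1. The share of names with at least 65% GC that were detected was 64.3%, and it was 83.3% for at least 70% GC and 85.7% when any value above the smallest counted. It stayed between 53.6% and 62.9% in the other 3 settings. The median difference of the GC-rich names lay between -0.11 (at least 60% GC) and 0.09, and that of the listed probes between -0.01 and 0.12, so neither has a settled sign. The match through the arms' mean GC and the trend drawn without the 5 probes were added after the data were seen. No paired analysis was possible because there was a lone array in either group, and no replicate could be left out. The dim probes miR-149 and miR-765 are limited by the floor.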
